A study of Homo sapiens with 4 samples.

Results

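The genes that encode the proteasome, its activators, its inhibitor and its assembly chaperones were examined in TT-seq (transient transcriptome sequencing) libraries of HEK293 cells, a human embryonic kidney line. Members were all protein-coding genes whose GENCODE symbol is PSMA, PSMB, PSMC, PSMD, PSME or PSMF followed by a number, or PSMG followed by a digit. The symbol alone chose them, and 48 of the 60708 genes listed in the deposited count table qualified. They lie on 17 chromosomes, with 8 on chromosome 14 and 7 on chromosome 17. In TT-seq, RNA made during a short pulse of 4-thiouridine is fragmented, biotinylated and pulled down, so the counts reflect synthesis during the pulse, introns included, rather than the amount of mature mRNA.

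All cells carried an RPB1 degron genotype, in which auxin triggers degradation of the endogenous largest subunit of RNA polymerase II. They were transiently transfected with an RPB1 construct, received auxin 48 h later for a further 48 h, and were then labelled with 4-thiouridine for 20 min. The 52X WT group received RPB1 with a wild-type C-terminal domain (CTD) of 52 repeats, and the 52X T4A group received the same protein with threonine 4 of every repeat changed to alanine. Each group had 2 libraries. Both groups carried the degron, the transfection and the auxin, and no library of untreated or untransfected cells was analysed here. The labels do not say whether the libraries of a group came from separate cultures, so p-values measure the spread between these libraries, which may be technical.

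The proteasome is the large protease that degrades proteins tagged with ubiquitin. Its core particle is a barrel of alpha rings, encoded by PSMA genes, around beta rings, encoded by PSMB genes. PSMB5, PSMB6 and PSMB7 carry the chymotrypsin-like, caspase-like and trypsin-like active sites. In immune cells, or after interferon gamma, PSMB8, PSMB9 and PSMB10 replace them. PSMB11 belongs to the thymus and PSMA8 to the testis. A regulatory particle recognises and unfolds the substrate with a ring of PSMC ATPases and a set of PSMD subunits, among them the ubiquitin receptor PSMD4 and the deubiquitinase PSMD14. PSME genes encode alternative activators, PSMF1 the inhibitor PI31, and PSMG1 to PSMG4, with PSMD5, PSMD9 and PSMD10, chaperones that assemble the particles. When proteasome activity is short, the transcription factor NFE2L1 (NRF1) induces the subunit genes together through antioxidant response elements (AREs) in their promoters.

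The libraries held between 33188536 and 45605027 counts. Log2 CPM (the count scaled to a common library size, on a log scale) correlated at 0.991 between the WT libraries and at 0.979 between the T4A libraries. T4A replicate 1 stood apart, at 0.975 and 0.974 to the WT libraries, whereas T4A replicate 2 was at 0.989 and 0.988, nearer to the WT libraries than to its own replicate. POLR2A, which encodes RPB1, held 377312 and 384353 counts in WT and 251502 and 279478 in T4A (log2 fold change of T4A over WT -0.24, SE 0.25, adjusted p = 0.659 by edgeR). Reads of the plasmid and of the endogenous gene could not be told apart, so POLR2A does not check the labels. Of 10 HEK293 marker genes, 8 exceeded 1 CPM in both groups, and the summed level of the list was 392 to 460 CPM, although NEFM was near 0. Of 10 defining genes of other cell types, 2 exceeded 1 CPM and TNP1 was at 0 in every library. That list summed to 5.47 to 6.08 CPM in the WT group and 5.18 to 7.48 CPM in the T4A group.

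RefSeq promoter windows (GRCh38.p14, 250 bases before to 50 after the start) were found for 42 of the 48 genes, 51 windows in all. The core of the ARE, TGACNNNGC on either strand, occurred in 15 of them, each of a different gene. This is 29.4% of the windows, against 13.8% of the 21579 windows of protein-coding genes and 13.3% of all 35116 windows. The following stretches, chosen as examples from the alpha, beta, non-ATPase, activator and chaperone genes, have the match in capitals with 25 bases on each side, 5′ to 3′ on the strand of the gene. They come from PSMA4 (chr15:78540635-78540693, plus strand), PSMB3 (chr17:38752612-38752670, plus), PSMD3 (chr17:39980745-39980803, plus), PSMD12 (chr17:67366709-67366767, minus), PSME2 (chr14:24146752-24146810, minus) and PSMG1 (chr21:39183601-39183659, minus).
PSMA4: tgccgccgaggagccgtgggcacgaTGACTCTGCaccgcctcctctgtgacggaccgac
PSMB3: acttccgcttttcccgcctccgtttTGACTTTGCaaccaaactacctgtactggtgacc
PSMD3: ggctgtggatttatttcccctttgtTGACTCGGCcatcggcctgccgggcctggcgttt
PSMD12: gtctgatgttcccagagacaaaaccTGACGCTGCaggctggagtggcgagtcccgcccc
PSME2: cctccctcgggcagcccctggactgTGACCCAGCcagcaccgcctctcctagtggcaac
PSMG1: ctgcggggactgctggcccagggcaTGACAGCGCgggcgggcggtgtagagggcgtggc
The central bases of the match, left free in the search, differ in every one of the 6 stretches. The CCAAT box, searched as ATTGG on either strand, occurred in 39.2% of the proteasome windows and 34.9% of the protein-coding windows. The cAMP response element TGACGTCA occurred in 0 of the 51 windows and in 2.28% of the protein-coding windows. These are matches of letters, not sites shown to be bound.

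The listed length of a gene was the whole genomic span between its ends, and 39 members had over 95% of that span free of other listed genes of their strand. Of the 48 members, 5 were not tested because their counts were too low. PSMA2 and PSMD9 held 0 counts in all 4 libraries, which is under the floor of 3 counts, or 0.0681 to 0.0894 CPM. PSMA6 had 2 and 3 counts in WT and 2 and 0 in T4A. These 3 genes had under 100 bases of span free of another gene of their strand. PSMA2, an alpha subunit present in every core particle, lay wholly inside ENSG00000256646, PSMA6, another such alpha subunit, was covered to 99.95% by ENSG00000258790, and the chaperone gene PSMD9 to 99.7% by ENSG00000256950. Their zero or near-zero counts were therefore not read as a level of transcription. PSMB8 held 0 and 1 counts in WT and 0 and 2 in T4A, the thymic PSMB11 held 8 and 4 in WT and 4 and 0 in T4A, and both had more than 100 bases of free span. Another 6 members lay to at least 50% under genes of the opposite strand. PSMA3 lay wholly under such genes and still held 4272, 5128, 4356 and 3736 counts.

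Per kilobase of span, most proteasome genes lay above the median protein-coding gene of these cells. Over all 48 members the median level was 3.08 CPM per kb, against 0.266 over the 19902 listed protein-coding genes, and 39 of the 48 lay above that value. Among genes with a mean count of at least 100, the median was 3.91 CPM per kb for 38 members and 1.02 for 11831 protein-coding genes, and 36 of the 38 lay above the latter. These 38 ran from 0.567 CPM per kb (PSMG4) to 12.6 CPM per kb (PSMB4). Their spans ran from 2359 bases (PSMB6) to 138762 bases (PSMA1). Of the listed span of PSMG4, 81.0% lay outside the span that RefSeq gives the gene, so its low level depends on the listed length. Spearman's rho between span and level was -0.378 over these 38 genes, which share libraries and enter the level through the same span, so it is given as a description.

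**Figure D1:**
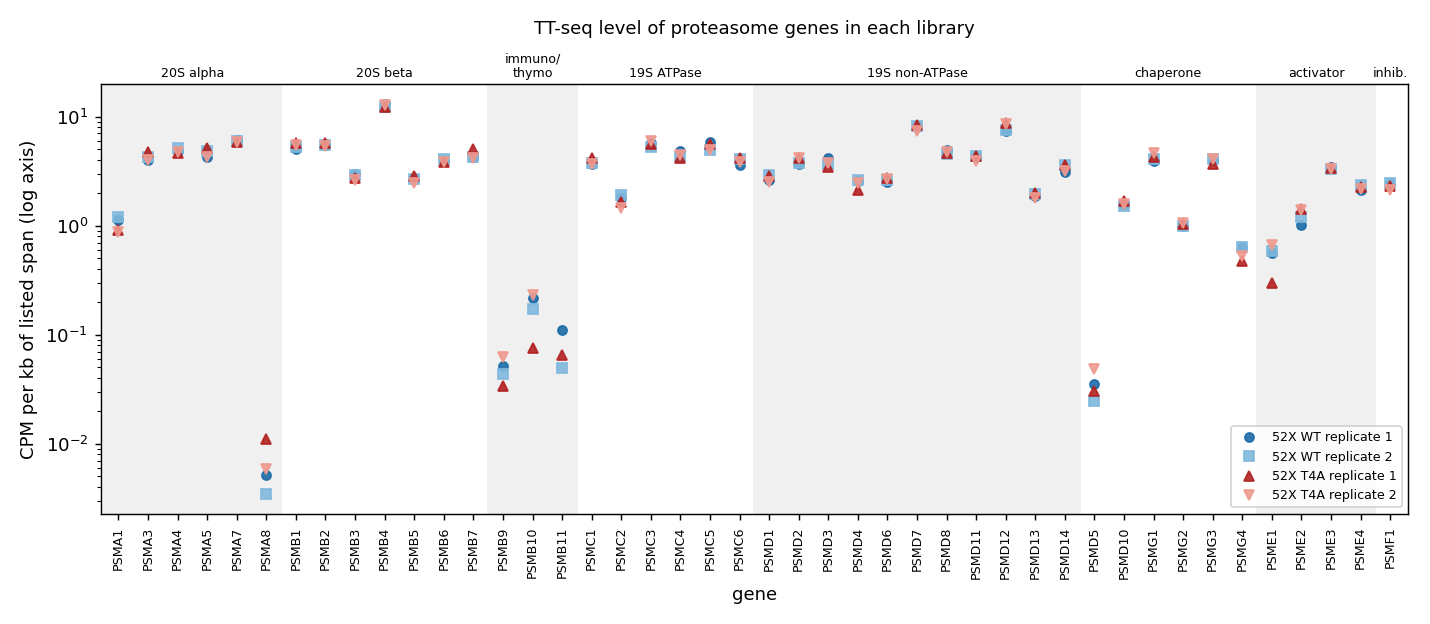
Level of each proteasome gene with over 10 counts, as CPM per kb of listed span on a log axis, with 1 point for each of the 4 libraries and genes arranged by role (20S is the core particle and 19S the regulatory particle, and a library at 0, as T4A replicate 2 for PSMB11, has no point). Most subunit genes sit between 1 and 10 CPM per kb, whereas PSMA8, PSMB9, PSMD5 and PSMB10 lie at 0.00636, 0.0480, 0.0347 and 0.175 CPM per kb.

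Within the alpha genes, PSMA7 was highest at a mean of 5.95 CPM per kb (6.11 and 5.92 in WT, 5.90 and 5.89 in T4A) and the testis gene PSMA8 was lowest at 0.00636. Among the constitutive beta genes PSMB4 was highest (13.1 and 12.3 in WT, 12.3 and 12.8 in T4A), and the active-site genes PSMB7, PSMB6 and PSMB5 were at 4.42, 3.90 and 2.69 CPM per kb. PSMB5 was the lowest of the 7 per listed kilobase, but per kilobase free of other genes of the strand it was at 2.86 and PSMB3 was lower at 2.81. Of the ATPases, PSMC3 was highest at 5.64 (5.77 and 5.21 in WT, 5.56 and 6.01 in T4A) and PSMC2 lowest at 1.71 CPM per kb. These ranks depend on the listed span, of which 47.6% for PSMC2 and 49.9% for PSMB5 lay outside the RefSeq span. Of the non-ATPase subunits, PSMD12 and the deubiquitinase partner PSMD7 were nearly level at 8.03 and 8.02 CPM per kb, and PSMD13 was lowest at 1.91 (1.88, 1.96, 1.99 and 1.79). The nuclear activator PSME3 was at 3.35 (3.43, 3.32, 3.35 and 3.32) and PSME1, a subunit of the interferon-inducible activator PA28, at 0.526 CPM per kb.

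The immunoproteasome genes were far below their constitutive counterparts. PSMB6 exceeded PSMB9 per listed kilobase 74.5- and 94.6-fold in the WT libraries and 113- and 60.7-fold in the T4A libraries. PSMB9 is listed over 15716 bases, of which 64.0% lie outside its RefSeq span of 5660 bases, so this ratio depends on the span used. PSMB7 exceeded PSMB10 19.5- and 24.6-fold in the WT libraries and 66.1- and 18.0-fold in the T4A libraries. The ratio was highest in T4A replicate 1, where PSMB10 held 6 counts against 20, 18 and 19 in the other libraries. PSMB10 was also covered to 64.1% by ENSG00000261884 of its strand. Its level per free kilobase was 0.486 CPM, beside 4.42 for PSMB7. Both sets of ratios use the listed span and are smaller per free kilobase. No ratio was formed for PSMB5 over PSMB8, which held no more than 2 counts in a library.

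The comparison of T4A with WT asked whether replacing threonine 4 alters the synthesis of RNA from these genes. None of the 43 tested proteasome genes passed the test (edgeR, adjusted p under 0.05 and a fold above 1.5), a threshold that 1 of 23321 genes passed, or 0.00429%. At an unadjusted p under 0.05, 1 was higher in T4A and 3 were lower, against 7.45% higher and 8.02% lower among all tested genes. These 4 are 9.30% of the 43, and 15.5% of all tested genes were at that level. DESeq2 called 0 of them at both thresholds, against 0.891% of the genes it gave an adjusted p. It gave none to PSMA8, PSMB9, PSMB10, PSMD5, PSME1 and PSME2, which could thus not be called. At adjusted p alone it passed 1, PSMA1, against 8.22%. Both T4A libraries were above both WT libraries for 9 of the 43 and below them for 9, against 24.8% and 24.7% of all tested genes. Counts were scaled to each library, so a log2 fold change is relative to the other genes. A change shared by all genes, in synthesis per cell or in the number of synthesising cells, would not show. For a single gene, less synthesis in each cell and synthesis in fewer cells cannot be told apart in such bulk libraries.

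The median log2 fold change of the 43 genes was -0.018, with quartiles at -0.072 and 0.078, beside -0.00076 over all tested genes and -0.043 over tested protein-coding genes. Counts differ among these sets, so the spread was also compared among genes with a mean count of at least 100. There, 31 of the 38 proteasome genes, or 81.6%, lay within 0.15 of 0 on the log2 scale, against 48.5% of 11831 protein-coding genes. At a mean count of at least 1000 the shares were 81.8% of 33 and 54.6% of 7042. The band of 0.15 was chosen after the values were seen, and no test was made of these shares. The median difference between group means, 0.073 in size over the 38 genes, lay between the median gap of the WT libraries, 0.061, and that of the T4A libraries, 0.11. The difference is between means of 2 libraries and the gaps are between single libraries, so these are unlike measures.

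**Figure D2:**
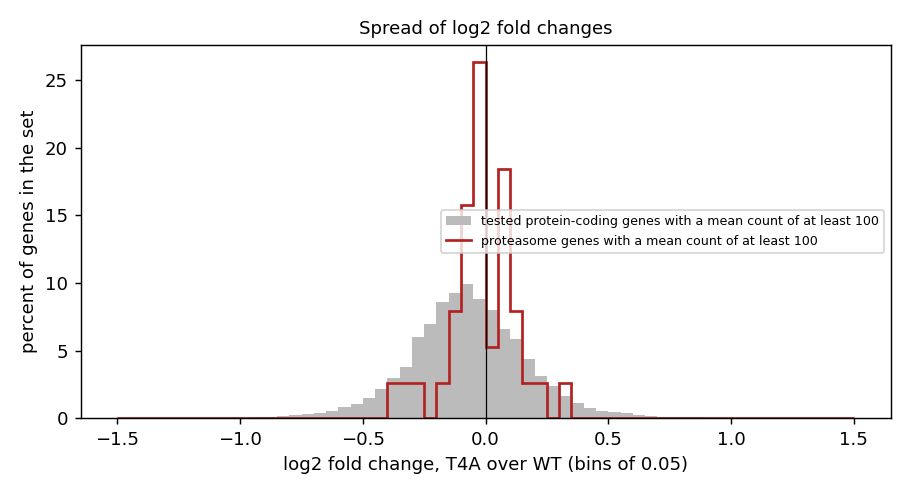
Share of genes, in percent, in each bin of 0.05 of the log2 fold change of T4A over WT, for the 38 proteasome genes and the 11831 protein-coding genes with a mean count of at least 100. The proteasome genes gather near 0, with quartiles at -0.066 and 0.076, whereas the protein-coding genes have quartiles at -0.21 and 0.072.

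**Figure D3:**
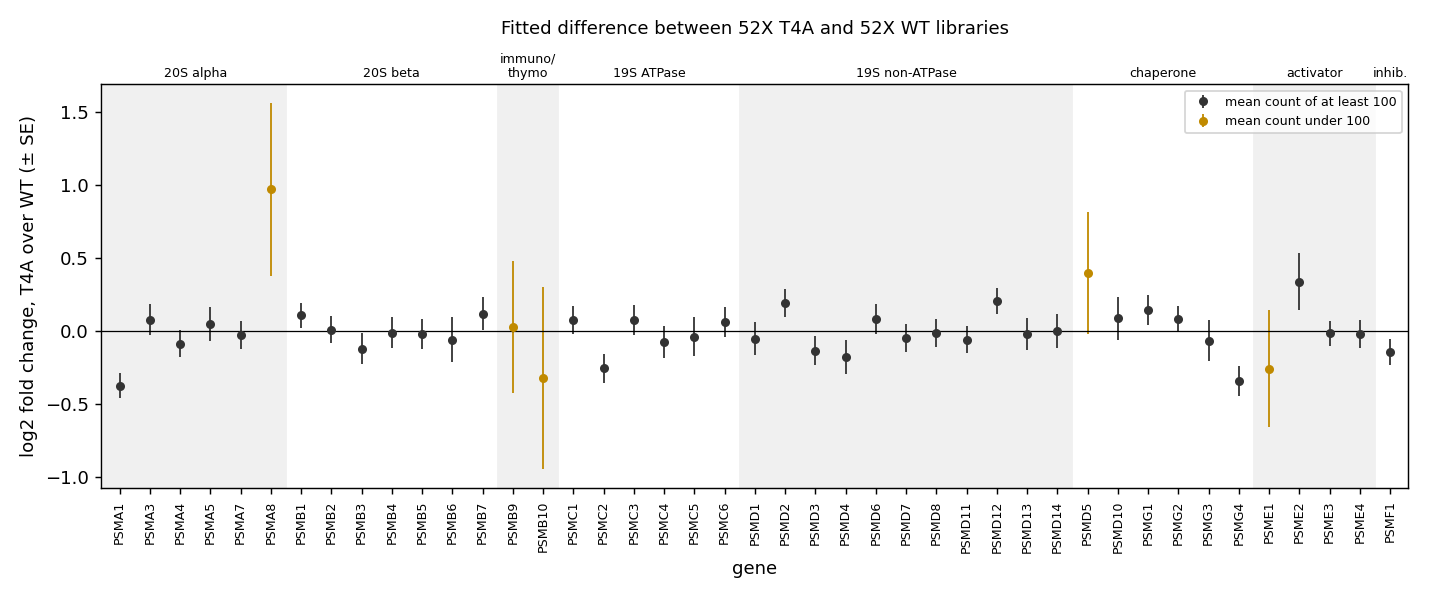
Fitted log2 fold change of T4A over WT with its standard error for the 43 tested proteasome genes, arranged by role. Most points lie near 0, with PSMA1, PSMG4 and PSMC2 lowest among the well-counted genes and wide bars on the 5 genes with a mean count under 100.

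Summed by role, the libraries of the groups overlapped except for the inhibitor. The 48 genes together held 3528 and 3683 CPM in the WT libraries and 3715 and 3441 CPM in the T4A libraries. The constitutive beta genes summed to 710, 713, 777 and 699 CPM and the ATPases to 346, 349, 352 and 330 CPM, in the order WT replicates 1 and 2 and T4A replicates 1 and 2. T4A replicate 1 was the highest and T4A replicate 2 the lowest library in each of these sums. PSMF1, the 1 inhibitor gene, held 183 and 187 CPM in the WT libraries and 174 and 161 CPM in the T4A libraries (log2 fold change -0.15, SE 0.09, adjusted p = 0.456 by edgeR). Both T4A libraries lay below both WT libraries for 24.7% of all tested genes too. Of the listed span of PSMF1, 22.6% lay outside its RefSeq span.

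All 7 constitutive beta genes lay between -0.12 and 0.12. PSMB5 held 51.1 and 50.2 CPM in WT and 53.6 and 46.2 CPM in T4A, and PSMB6 held 9.15, 9.66, 9.06 and 8.97 CPM. The chymotrypsin-like and caspase-like genes thus differed by -0.02 and -0.06 on the log2 scale, and the trypsin-like PSMB7 by 0.12, with 262 and 264 CPM in WT and 310 and 260 CPM in T4A, so that T4A replicate 1 alone was high. Of the 11 non-ATPase genes, 8 lay within 0.15 of 0, and PSMD14, which removes ubiquitin chains from the substrate, was at 0.00 (320, 373, 368 and 325 CPM). PSMD2, a scaffold of the regulatory particle, had both T4A libraries above both WT libraries (35.8 and 36.6 CPM against 41.3 and 41.4 CPM, log2 fold change 0.19, adjusted p = 0.376). PSMD4, the ubiquitin receptor, had them below (32.8 and 33.4 CPM against 27.2 and 31.3 CPM, -0.18, adjusted p = 0.472).

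The chaperone genes had a median of 0.084 over 6 tested, the highest of the groups with more than 1 tested gene. PSMG1 and PSMG2 form a chaperone pair, and for both the T4A libraries lay above the WT libraries. PSMG1 held 34.4 and 35.8 CPM in WT and 37.3 and 40.1 CPM in T4A, a log2 difference of 0.14, and PSMG2 held 66.6 and 66.5 against 69.7 and 71.3 CPM, a difference of 0.083. PSMG4, of the other chaperone pair, lay the opposite way at -0.35, and its partner PSMG3 was at -0.067 with overlapping libraries. None of the 4 passed the test.

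The low-count members had the widest errors. PSMA8 held 12 and 9 counts in WT and 22 and 12 in T4A (log2 fold change 0.97, SE 0.59, adjusted p = 0.451), and leaving out 1 library moved the difference between 0.47 (without T4A replicate 1) and 1.36 (without T4A replicate 2). PSMD5, a base chaperone, held 38, 30, 28 and 46 counts (0.39, SE 0.42), with 0.021 without T4A replicate 2 and 0.71 without T4A replicate 1. PSMB9 held 32, 30, 18 and 34 (0.02, SE 0.45). For PSMB10 and PSME1 the low library was T4A replicate 1 alone, with 6 counts of PSMB10 against 18 to 20, and with PSME1 at 62 and 72 counts in WT and 28 and 64 in T4A. PSME2, the partner of PSME1 in PA28, held 168, 223, 201 and 201 counts, or 4.68 ± 0.542 CPM in WT and 5.90 ± 0.123 CPM in T4A (SD, 2 libraries each), a log2 fold change of 0.33 (SE 0.19, adjusted p = 0.431).

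Of the genes at an unadjusted p under 0.05, PSMA1 had the lowest log2 fold change of all 43. It held 157 and 165 CPM in the WT libraries and 127 and 121 CPM in the T4A libraries. Both T4A libraries were thus well below both WT libraries, at 124 ± 4.36 against 161 ± 6.07 CPM (SD), and the log2 fold change was -0.38 (SE 0.09, adjusted p = 0.188 by edgeR). With DESeq2 the adjusted p of PSMA1 was 0.00187 at a log2 fold change of -0.37, short of the fold threshold. PSMG4 held 45.5 and 45.9 CPM in WT and 33.9 and 37.9 CPM in T4A (-0.35, SE 0.10, adjusted p = 0.232). PSMC2, an ATPase of the regulatory particle, held 74.7 and 80.4 CPM in WT and 68.9 and 61.0 CPM in T4A (-0.26, SE 0.10, adjusted p = 0.287). The other 5 ATPases of the ring lay between -0.077 and 0.076 with overlapping libraries.

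PSMD12, a non-ATPase subunit of the regulatory particle lid, was the 1 member higher in T4A at that level. Its libraries held 213 and 215 CPM in WT and 249 and 245 CPM in T4A, so the gap between groups was far wider than that within either. The log2 fold change was 0.20 (SE 0.09, unadjusted p = 0.0499, adjusted p = 0.323 by edgeR). Without T4A replicate 1, the library that stood apart, the log2 fold changes were -0.39 for PSMA1, -0.25 for PSMG4, -0.32 for PSMC2 and 0.21 for PSMD12, with adjusted p of 0.0545, 0.363, 0.160 and 0.363. Without T4A replicate 2, PSMA1 and PSMG4 passed an adjusted p of 0.05 (0.0366 and 0.0162, at -0.34 and -0.43), as did 14.6% of all tested genes.

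**Figure D4:**
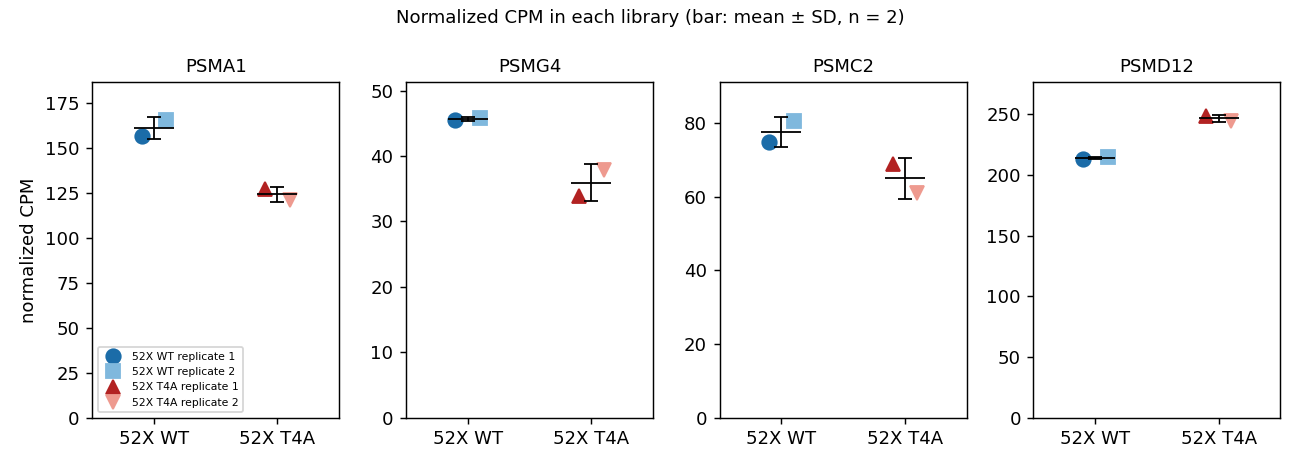
Normalized CPM of PSMA1, PSMG4, PSMC2 and PSMD12 in each of the 4 libraries, on axes that start at 0, with the mean and SD of each group. For the first 3 both T4A points lie below both WT points, as PSMA1 at 127 and 121 against 157 and 165 CPM, and for PSMD12 both lie above.

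The listed spans of the 3 genes lower in T4A at an unadjusted p under 0.05 reach well beyond the start that RefSeq gives in the promoter table. PSMA1 is listed at chr11:14504874-14643635 on the minus strand, and its RefSeq start is at 14520386. Another gene of the strand, ENSG00000256206 (chr11:14493783-14520344), covers the stretch on the other side of that start. Of the 123291 bases of PSMA1 that no other listed gene of the strand covers, 123249, or 99.97%, lie before that start and 42 after it. RefSeq's span of PSMA1 also reaches to 14643662, so the upstream stretch is annotated as part of the gene. The covered PSMA2, PSMA6 and PSMD9 held 0 to 3 counts in each library. How reads under more than 1 gene of a strand were assigned is not given in the sources used here and was not tested. If they were left out for PSMA1, its value is that of the stretch upstream of the start and not of the body of the gene.

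PSMG4 is listed at chr6:3231403-3303373, plus strand, and 81.0% of that span lies outside the RefSeq span of the gene (3254404 to 3268049). Before its RefSeq start at 3258947 lie 27544 of its 71971 bases, or 38.3%. PSMC2 is listed at chr7:103328570-103370346, plus strand, and 18131 of its 40664 free bases, or 44.6%, lie before its RefSeq start at 103347643. Their counts thus span the gene body and the bases upstream of it. Bases downstream are included as well, from the RefSeq end at 3268049 to 3303373 for PSMG4. For PSMC2 they run from 103369395 to 103370346. PSMD12, at chr17:67337916-67366605 on the minus strand, has 28 of its 28690 bases before the start.

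Among the 37 tested members with a promoter window, 6 had at least 10% of their free bases before the RefSeq start, namely PSMA1, PSMB9, PSME3, PSMC2, PSMG4 and PSME2. This feature and the limit of 10% were chosen after the values of PSMA1, PSMG4 and PSMC2 were seen, so that these 3 are among the 6 supports nothing. On the log2 scale PSMB9 (57.6% of its free bases before the start) was at 0.02 (SE 0.45) and PSME3 (46.5%) at -0.02 (SE 0.09). PSME2 (23.2%) was at 0.33 (SE 0.19). These values are given as a description. Whether the upstream bases differ from the gene body in T4A was not tested, since the table holds 1 count per gene.

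**Figure D5:**
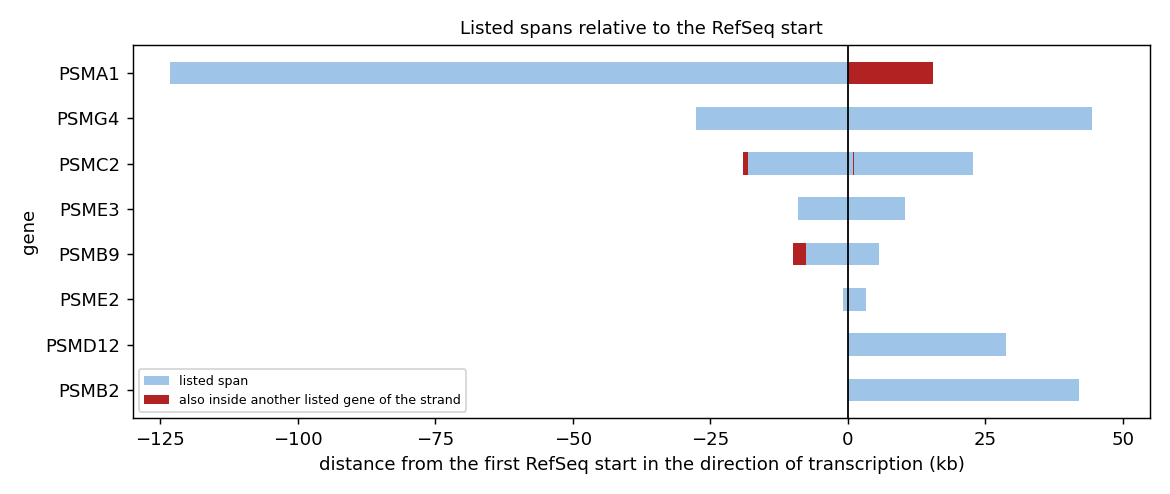
Listed spans of 8 proteasome genes in kb from the first RefSeq start, which is set at 0 with upstream to the left, and with stretches that another listed gene of the strand also covers in red. PSMA1 has nearly all its uncovered span upstream of 0, whereas PSMD12 and PSMB2 begin there.

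The tested members with the ARE core in their promoter window, 14 in number, had a median log2 fold change of -0.032, between -0.26 and 0.39, and the 23 tested members with a window and no match had a median of -0.013. Of the genes whose matches were shown with the promoter sequences, PSMB3, PSMD3 and PSMA4 differed by -0.12, -0.14 and -0.090. PSMG1, PSMD12 and PSME2 differed by 0.14, 0.20 and 0.33. NFE2L1 itself held 1966, 2186, 1657 and 1800 counts (0.02, adjusted p = 0.920).

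A list of 38 other genes of the pathway was tested as well, covering further subunits and assembly factors, bound enzymes, ubiquitin shuttles, transcription factors and ubiquitin genes. None was called by edgeR. With an unadjusted p under 0.05 there were 7, 4 on the higher side and 3 on the lower, or 18.4% of the list, near the 15.5% of all tested genes. The median log2 fold change was -0.0075. MAFF, a small MAF partner of NFE2L1-type factors, held 816 and 930 counts in WT and 1017 and 1108 in T4A (21.0 ± 0.177 against 31.2 ± 1.24 CPM, log2 fold change 0.57, adjusted p = 0.173 by edgeR). With DESeq2 its adjusted p was 0.00178 at 0.58, short of the fold threshold, and without T4A replicate 1 its edgeR log2 fold change was 0.63. The other genes on the higher side were AKIRIN2, which brings proteasomes into the nucleus, at 0.33, the ubiquitin-binding ZFAND5 at 0.34 and the polyubiquitin gene UBB at 0.28. Of these, AKIRIN2 and ZFAND5 passed adjusted p alone with DESeq2, at 0.0151 and 0.0127, as did 8.22% of the genes it gave an adjusted p. On the lower side were PAAF1, an assembly factor of the ATPase ring, at -0.33, DDI2, the protease that activates NFE2L1, at -0.23, and NFYA, a subunit of the factor that binds the CCAAT box, at -0.23. ADRM1, a ubiquitin receptor of the regulatory particle, held 1049 and 1173 counts in WT and 270 and 837 in T4A, so that T4A replicate 1 alone was far lower (-0.73, SE 0.39, adjusted p = 0.398). Without T4A replicate 1 its log2 fold change was -0.12, and without T4A replicate 2 it was -1.73. The core assembly factor POMP (0.11, adjusted p = 0.563) and the small lid subunit SEM1 (0.05, adjusted p = 0.819) lay near 0.

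Of 16 interferon and antigen-processing genes, which share induction by interferon with the immunoproteasome, 15 were tested and edgeR called none. At an unadjusted p under 0.05, 2 were higher, the transcription factor IRF1 (0.42, adjusted p = 0.231) and B2M, the light chain of MHC class I (0.28, adjusted p = 0.237), and 0 were lower. These are 13.3% of the 15, against 15.5% of all tested genes. With DESeq2 the adjusted p was 0.0319 for IRF1 and 0.0443 for B2M, both short of the fold threshold. At adjusted p alone DESeq2 passed 8.22% of genes. Without T4A replicate 2 the edgeR log2 fold change of IRF1 was 0.59. The median of the list was 0.076. TAP1, the peptide transporter gene beside PSMB9, held 60, 96, 48 and 86 counts (0.08, adjusted p = 0.930).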

How the data were processed

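The deposited table holds raw counts per gene and library, made by the authors with featureCounts against GRCh38. The submitters' processing notes name FastQC, cutadapt 4.6, STAR 2.7.11b, Picard and deepTools 3.5.6. The counting version and its strand setting are not given in the sources used here, and the libraries were made strand-specific with dUTP. The 4 libraries were grouped by title. Gene names came from GENCODE v44lift37 by identifier (58742 of 60708 matched), and coordinates are those of the table. Counts were tested with edgeR 4.0.16 (limma 3.58.1, R 4.3.3): filterByExpr, TMM, quasi-likelihood test and Benjamini-Hochberg adjustment over 23321 genes. A gene was called at adjusted p under 0.05 and a fold above 1.5. DESeq2 1.42.0, other scalings and filters, a replicate block and leaving out each library were alternatives. Log2 fold changes are T4A over WT. The exact permutation test cannot go below p = 0.333 with 2 libraries a group. The paper supplied does not describe this experiment.

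Named with values in every library were members at unadjusted p under 0.05, the 3 highest and 3 lowest log2 fold changes, the highest and lowest level per kb of each role, the immunoproteasome counterparts, PSMA8 and PSMB11. Others named were chosen after their values were seen. The members and lists were chosen with earlier results of these data known.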

Additional observations from a re-analysis of the deposited data

How the results depend on the processing

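The count of proteasome genes called was 0 under every alternative run. PSMA1 and PSMG4 alone passed an adjusted p of 0.05 in any setting, PSMA1 with DESeq2 and both without T4A replicate 2. Over all tested genes, the count called was 1 with edgeR and 99 with DESeq2, 65 with no filter on low counts and 0 to 2431 on leaving out 1 library. By library, it was 2431 when T4A replicate 2 was left out, 224 for T4A replicate 1, 2 for WT replicate 1 and 0 for WT replicate 2. The number of proteasome genes at an unadjusted p under 0.05 ran from 1 to 5 on leaving out 1 library. It was 3 and 1 when WT replicates 1 and 2 were left out and 2 and 5 for T4A replicates 1 and 2, against 8.26%, 5.77%, 15.7% and 26.8% of all tested genes. The median log2 fold change of the proteasome genes was -0.018, and 0.033 with library size only, -0.044 with no filter and 0.015 over protein-coding genes only. In those 3 alternatives the median over all tested genes was 0.050, 0.056 and -0.010. The proteasome median ran from -0.018 to 0.021 on leaving out 1 library.

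The labels give both groups replicates 1 and 2, but same-numbered libraries did not deviate together (correlation of their deviations 0.0050), so the numbers were not taken as a pairing. With a replicate block, 433 genes were called, 0 proteasome genes, and 2 of them were at an unadjusted p under 0.05, both lower, against 14.1% of all tested genes.

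Of 383 alternative values for 35 named genes, 353 kept their direction and side of the call threshold, which joins adjusted p and fold. Another 4 came to pass that threshold, and 26 turned direction, all of genes near 0 or with few counts. Values that passed adjusted p alone, as PSMA1 and MAFF with DESeq2, are among the 353. So are the DESeq2 values of PSMA8, PSMB9, PSMB10, PSMD5, PSME1, PSME2 and TAP1, to which it gave no adjusted p. With library size only and with protein-coding genes only, in that order, PSMA7 gave 0.022 and 0.0038, PSMB4 0.038 and 0.020, PSMB5 0.027 and 0.011, PSMD13 0.027 and 0.011, and PSME3 0.033 and 0.015. NFE2L1 gave -0.0011 with no filter, and PSMB9 gave -0.013 with the replicate block. Leaving out 1 library, the log2 fold change ran from -0.016 to 0.082 for NFE2L1, -1.34 to 0.28 for PSMB10, -0.055 to 0.035 for PSMB4, -0.11 to 0.083 for PSMB5, -0.48 to 0.42 for PSMB9, -0.082 to 0.054 for PSMD13, -0.95 to 0.22 for PSME1, -0.036 to 0.0043 for PSME3, -0.032 to 0.14 for SEM1 and -0.38 to 0.44 for TAP1. The values that came to pass the call threshold included ADRM1 with the replicate block (-0.92, adjusted p = 0.000338 against 0.398 by edgeR). The others were ADRM1 without T4A replicate 2 (-1.73), IRF1 without T4A replicate 2 and MAFF without T4A replicate 1. Without T4A replicate 1, ADRM1 was at -0.12. The causes were not tested. Levels per free kilobase, an alternative added after the data were seen, moved PSMA3 to 5.23, PSMB10 to 0.486 and PSMB5 to 2.86 CPM per kb. Depth limited the 5 tested members with a mean count under 100, whose SEs were 0.40 to 0.62, wider than any log2 difference of a well-counted member.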

Other observations

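The table also lists 44 pseudogenes named after 17 of the proteasome genes. Summed over all 44, the counts were 51 and 36 in WT and 45 and 20 in T4A. PSMA6P2 held 17, 5, 19 and 6 of these and PSMD10P2 held 16, 14, 12 and 8.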
